A study of Mus musculus with 6 samples.

Results

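The 9 genes described here, which mark the quiescent state of hepatic stellate cells, are Hgf, Angptl6, Reln, Ecm1, Ngfr, Abcc9, Steap4, Cygb and Gfap. They were taken by gene symbol from a table of 24940 genes, and all 9 were found there. Stellate cells are the vitamin A-storing pericytes that line the sinusoids of the liver. RNA with poly(A) tails was sequenced from primary stellate cells of wild-type female C57BL/6JBomTac mice, in 3 Fsk and 3 Ctrl libraries carrying the letters A to C. The Fsk cells were given 5 µM forskolin, an activator of adenylyl cyclase that raises cyclic AMP, on day 2 after isolation. The Ctrl cells were given the vehicle dimethyl sulfoxide alone at a dilution of 1 in 1000. The medium of both groups was renewed after 3 h and the cells were lysed 21 h later, which the labels call 24 h. All cells had therefore been in culture for some days, and stellate cells are known to leave quiescence in culture, so the values describe cultured cells and not cells of the intact liver. The labels do not say whether the 3 libraries of a group came from separate mice or cultures, so each p-value speaks of library-to-library spread alone, and that spread may be technical.

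In the healthy liver the quiescent stellate cell stores retinoids, wraps the sinusoid and sends growth factors to hepatocytes and endothelium. After injury, or on plastic, it turns into a contractile cell that makes collagen, and markers of the quiescent state are lost to different degrees. Cyclic AMP carries the signal of receptors that couple to stimulatory G proteins, and it acts through protein kinase A on transcription factors that bind the cyclic AMP response element. The 9 markers have different roles. Hgf and Angptl6 are secreted ligands, Reln and Ecm1 are secreted glycoproteins of the matrix, Ngfr is a receptor, Abcc9 is a channel subunit, Steap4 is a metalloreductase, Cygb is a globin and Gfap is an intermediate filament protein.

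Of the 9 markers, 7 were higher in Fsk libraries, 1 was lower and 1 did not pass the test (edgeR quasi-likelihood test, adjusted p under 0.05). Hgf, Angptl6, Abcc9 and Steap4 rose by a factor of 2.02 to 2.56, Cygb rose 1.52-fold, and Ecm1 and Reln rose 1.19-fold and 1.12-fold. Ngfr fell to a fold of 0.399, and Gfap was close to the limit of detection in every library. Of all 13357 genes tested, 24.8% were higher and 25.1% were lower in Fsk libraries by the same rule, 49.9% in all. A change of at least 2-fold was called for 5 of the 9 markers, 4 higher and 1 lower, and for 6.62% of all genes, 2.9% higher and 3.71% lower. The 3 libraries of each group did not overlap for 7 of the 9 markers, 6 higher and 1 lower, and for 57.2% of all genes, 28.8% higher and 28.3% lower. The median log2 fold change was 0.61 over the 9 markers and 0.01 over all genes tested. The 9 markers were chosen with earlier results of these libraries known, so these shares describe the markers and are no test of them as a group. In such bulk RNA fewer cells of a type and less RNA per cell cannot be told apart. The summed level of the 9 was 2371 ± 12.2 CPM in Fsk libraries and 1752 ± 79.1 CPM in Ctrl libraries (SD, n = 3 each). This sum is not scaled to gene length, and Reln and Ecm1 made up most of it in both groups. Ngfr, which fell, added only 6.25 CPM in Fsk libraries and 15.6 CPM in Ctrl libraries. CPM, the usual measure of level for counts, is a count scaled to the total of its library, here with TMM factors, and all log2 fold changes are Fsk over Ctrl.

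**Figure D1:**
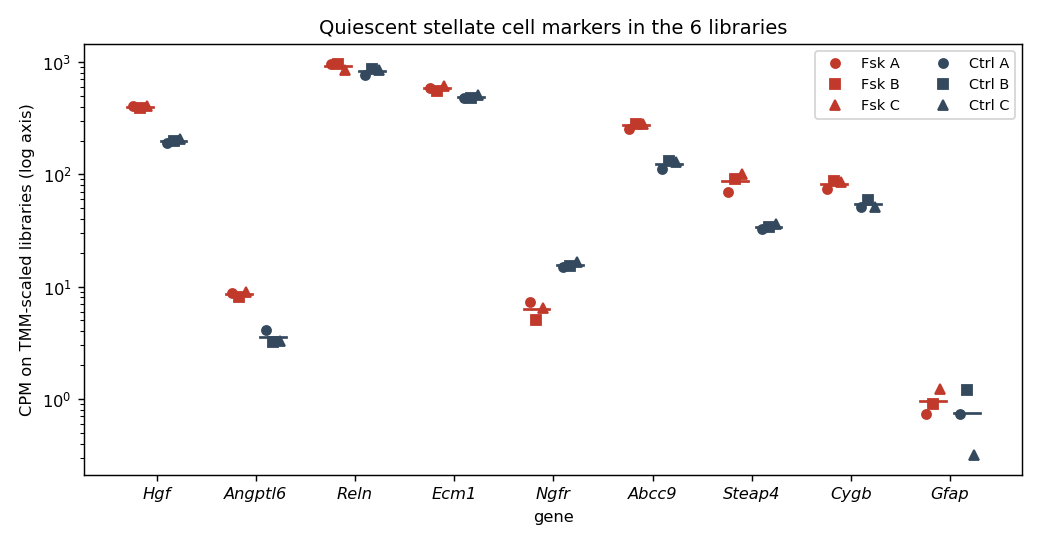
The level of each marker in the 6 libraries, in CPM on a log axis, with Fsk libraries in red at the left of each pair and Ctrl libraries in dark blue at the right; lines are group means. The groups stand apart for Hgf, Angptl6, Ecm1, Ngfr, Abcc9, Steap4 and Cygb, and they overlap for Reln and Gfap.

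**Figure D2:**
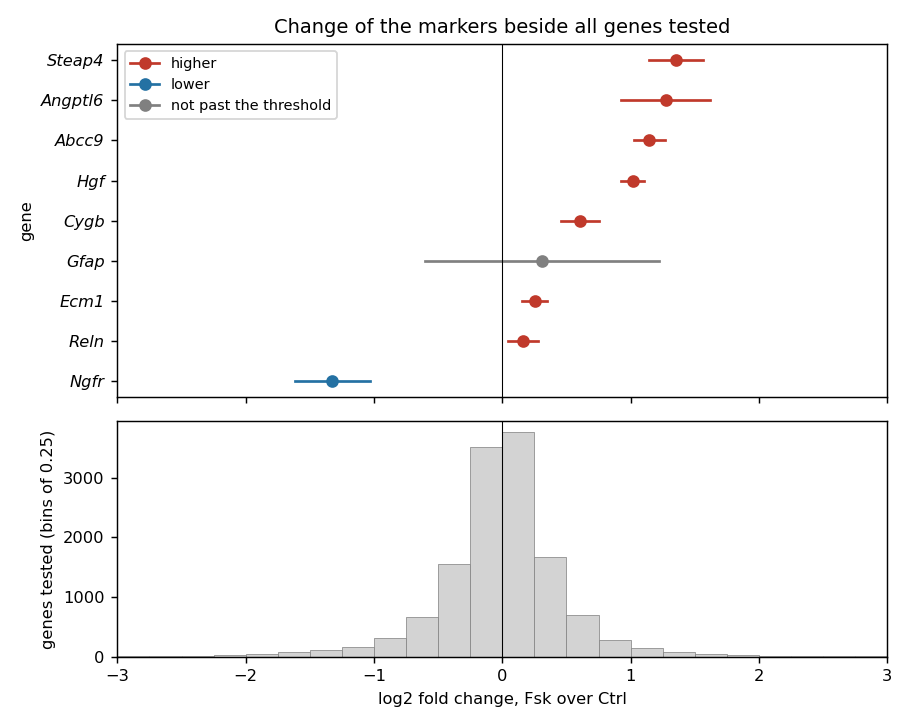
Above, the log2 fold change of each marker (point) with its 95% interval (line); below, the number of tested genes in bins of 0.25 on the same scale, drawn from -3 to 3. Steap4, Angptl6, Abcc9 and Hgf lie beyond 1, Ngfr lies beyond -1, and most genes lie close to 0.

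The stretch before each start site is shown for Hgf, Steap4, Abcc9 and Ngfr, and for Kcnj8, the channel gene next to Abcc9. The treatment raises cyclic AMP, and the start of a gene is where response elements are often found. The sequence of Angptl6, which also changed by more than 2-fold, is not shown. The sequences are RefSeq's for GRCm38.p6, the build that the authors' mm10 coordinates also use, and each holds the 250 bases upstream of the start given in the deposited table. Capitals mark TGACG, the core of the cyclic AMP response element, and GGGCGG, the GC box, on either strand.
Hgf (chr5:16553245-16553494, plus strand): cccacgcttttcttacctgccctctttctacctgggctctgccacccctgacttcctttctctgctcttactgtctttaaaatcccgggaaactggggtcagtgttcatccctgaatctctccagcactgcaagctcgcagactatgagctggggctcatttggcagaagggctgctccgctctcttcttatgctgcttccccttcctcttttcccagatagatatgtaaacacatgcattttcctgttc
Steap4 (chr5:7960222-7960471, plus strand): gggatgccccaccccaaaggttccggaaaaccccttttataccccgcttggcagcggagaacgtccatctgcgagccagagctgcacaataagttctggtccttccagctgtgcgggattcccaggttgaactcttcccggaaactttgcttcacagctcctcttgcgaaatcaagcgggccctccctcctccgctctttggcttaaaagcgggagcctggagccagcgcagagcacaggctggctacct
Abcc9 (chr6:142702275-142702524, minus strand): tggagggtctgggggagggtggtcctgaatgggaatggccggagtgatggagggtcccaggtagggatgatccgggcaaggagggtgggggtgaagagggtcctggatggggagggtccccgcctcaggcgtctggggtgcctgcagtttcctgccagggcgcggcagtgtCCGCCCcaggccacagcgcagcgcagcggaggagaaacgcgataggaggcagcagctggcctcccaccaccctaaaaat
Kcnj8 (chr6:142571615-142571864, minus strand): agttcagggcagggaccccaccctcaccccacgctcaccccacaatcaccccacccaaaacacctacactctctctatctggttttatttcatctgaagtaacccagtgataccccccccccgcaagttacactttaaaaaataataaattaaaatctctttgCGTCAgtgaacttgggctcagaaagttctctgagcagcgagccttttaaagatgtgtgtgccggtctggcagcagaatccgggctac
Ngfr (chr11:95587699-95587948, minus strand): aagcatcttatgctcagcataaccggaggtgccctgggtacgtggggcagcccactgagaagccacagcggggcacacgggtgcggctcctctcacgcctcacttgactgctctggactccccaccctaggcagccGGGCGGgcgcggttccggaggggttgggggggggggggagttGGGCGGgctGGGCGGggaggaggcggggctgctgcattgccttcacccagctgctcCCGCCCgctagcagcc
TGACG was found on neither strand in any of the 9 windows that the table held for 8 of the 9 markers (250 bases before to 50 bases after the start, Hgf with 2 windows). It was found in 20.8% of all 32851 windows of that length. The window of Kcnj8 held it 1 time, on the minus strand of the sequence shown. The full palindromic element TGACGTCA, which contains the core, was in no window of the markers and in 1.79% of all windows. The GC box was in the windows of Reln, Ecm1, Ngfr and Abcc9 and in 35.7% of all windows. TATAAA, the TATA box, was in the windows of Ecm1 and Steap4 and in 13.6% of all windows, and TGAGTCA, the AP-1 site, was in that of Ecm1 and in 5.2% of all windows, each searched on both strands. A match of letters is a description of the window and not a measured binding site, and no match says only that these letters are not in this window.

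Hgf encodes hepatocyte growth factor, the ligand by which stellate cells act on hepatocytes. Its level was 406, 388 and 410.1 CPM in Fsk libraries A, B and C, against 191, 199.9 and 205 CPM in Ctrl libraries A, B and C. All 3 Fsk libraries were thus well above all 3 Ctrl libraries, and the libraries of a group differed by little. The log2 fold change was 1.02 (SE 0.0427, edgeR adjusted p = 9.68e-13), and over all alternatives it lay between 0.98 and 1.06. Hgf (mm10 chr5:16553495-16619439, plus strand) shares 6.74% of its annotated exon bases with Gm43489, a predicted gene on the same strand.

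Of the other hepatocyte growth factor system genes, 3 of 8 tested rose and 3 fell, beside 24.8% and 25.1% of all genes tested. Genes of the proteases that can cleave the HGF precursor moved in both directions. Plat, tissue plasminogen activator, had 257, 316 and 309 CPM in Fsk libraries A, B and C, against 49.0, 53.6 and 54.8 CPM in Ctrl libraries A, B and C (log2 fold change 2.49, edgeR adjusted p = 7.92e-15). Plau, urokinase, rose 1.49-fold, and St14, the membrane protease matriptase, fell to 1.97 ± 0.352 CPM in Fsk libraries, against 6.85 ± 1.15 CPM in Ctrl libraries (SD, n = 3 each). Met, the receptor of HGF, was low in these cells and fell further, to 3.96 ± 0.982 CPM in Fsk libraries, against 11.9 ± 1.03 CPM in Ctrl libraries (log2 fold change -1.60, edgeR adjusted p = 3.05e-07). Spint2, an inhibitor of matriptase, fell by 0.46 on the log2 scale. Mst1, the related ligand called macrophage-stimulating protein, rose 2.10-fold, and its exons overlap those of Rnf123 on the other strand by 8.62%.

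Angptl6 (mm10 chr9:20873809-20879710, minus strand) encodes a secreted protein of the angiopoietin-like family that is also known from hepatocytes. It had 8.75, 8.08 and 8.96 CPM in Fsk libraries A, B and C, against 4.13, 3.22 and 3.31 CPM in Ctrl libraries A, B and C. The groups did not overlap, at counts of only 96.5 to 109 in Fsk libraries and 42 to 56 in Ctrl libraries. In log2 terms the change was 1.27 (SE 0.166, edgeR adjusted p = 4.46e-06). Its exons overlap those of A230050P20Rik on the other strand by 16.8%, and the labels do not say that strand was kept, so reads of the pair cannot be told apart there. A230050P20Rik was itself higher, at 22.8 ± 2.48 CPM in Fsk libraries and 18.0 ± 1.91 CPM in Ctrl libraries (SD, n = 3 each, edgeR adjusted p = 0.0104), and its part in the Angptl6 count was not tested. Of the other members of the family, Angptl2 rose 1.56-fold and Angptl4, an inhibitor of lipoprotein lipase, fell by 0.41 on the log2 scale. The remaining 4 family members in the table were too low to be tested.

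Reln (mm10 chr5:21884454-22344705, minus strand) encodes reelin, a large secreted glycoprotein known for guiding neurons and used in the liver to tell stellate cells from other myofibroblasts. Its level was 969.8, 968 and 844 CPM in Fsk libraries A, B and C, against 773, 869.7 and 851 CPM in Ctrl libraries A, B and C. Fsk C lay below 2 of the 3 Ctrl libraries, so the groups overlapped. Fsk over Ctrl, the log2 fold change came to 0.16 (SE 0.0554, 95% interval 0.041 to 0.274, edgeR adjusted p = 0.0245). This edgeR call was lost without Fsk A (adjusted p = 0.0545), without Fsk B (adjusted p = 0.114), without Ctrl A (adjusted p = 0.17) and with library size as a covariate (adjusted p = 0.115). The difference on the log2 scale was 0.11 without Ctrl A and 0.22 without Fsk C, the lowest and the highest over the alternatives.

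Of 8 tested genes that receive, carry or limit the reelin signal, 4 rose and the other 4 (Crk, Crkl, Src and Adamts3) did not pass the test. Of all genes tested 24.8% rose and 25.1% fell, 49.9% in all, so the share called in this list is no more than that of all genes. Vldlr, a reelin receptor of the low-density lipoprotein receptor family, had 18.2, 18.3 and 12.2 CPM in Fsk libraries A, B and C, against 3.69, 5.56 and 3.54 CPM in Ctrl libraries A, B and C (log2 fold change 1.91, edgeR adjusted p = 1.17e-07). Lrp8, the other reelin receptor, rose 1.29-fold, and Fyn, the kinase that phosphorylates the adaptor of the pathway, rose 1.74-fold. Pafah1b1 rose by 0.18 on the log2 scale, which was no longer called once library size was a covariate (adjusted p = 0.0601). Dab1, the gene of that adaptor, was at 0.164 CPM or less in every library and was not tested.

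Ecm1 (mm10 chr3:95734147-95739569, minus strand) encodes extracellular matrix protein 1, a secreted glycoprotein that in mouse liver is known to keep TGF-beta in its latent form. Its level was 586, 551 and 616 CPM in Fsk libraries A, B and C, against 482, 482 and 509 CPM in Ctrl libraries A, B and C. The lowest Fsk library was above the highest Ctrl library, though by less than the spread within the Fsk group. The log2 fold change was 0.25 (SE 0.0457, edgeR adjusted p = 0.000167), and the call was kept under all 14 alternatives. Of 6 tested genes whose products are known to bind ECM1 or to take part in releasing TGF-beta, 5 fell, beside 25.1% of all genes tested. The integrin subunit gene Itgb8 did not pass the test (2.02 CPM in Fsk libraries and 1.33 CPM in Ctrl libraries, edgeR adjusted p = 0.114). The integrin subunit gene Itgb6, whose product activates latent TGF-beta, fell to 2.29 ± 0.704 CPM in Fsk libraries, against 4.83 ± 0.891 CPM in Ctrl libraries (SD, n = 3 each). Tgfb1 itself fell by 0.41 on the log2 scale (edgeR adjusted p = 5.7e-07), Hspg2, which encodes perlecan, by 0.34, and Itgav by 0.17. Fbln1, the last of the 5, averaged 2.08 CPM in Fsk libraries and 3.49 CPM in Ctrl libraries, and its call was lost without Fsk B, Ctrl B or Ctrl C and under 2 other alternatives.

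Ngfr (mm10 chr11:95568821-95587698, minus strand) encodes p75, the low-affinity receptor of the neurotrophins, and it was the marker that fell. It had 7.29, 5.06 and 6.41 CPM in Fsk libraries A, B and C, against 14.9, 15.3 and 16.5 CPM in Ctrl libraries A, B and C. No Fsk library reached the lowest Ctrl library. In log2 terms the change was -1.32 (SE 0.138, edgeR adjusted p = 2.63e-07), with a range of -1.57 to -1.19 over the alternatives.

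Bdnf, the gene of brain-derived neurotrophic factor, a ligand of the p75 receptor, fell to 129 ± 4.37 CPM in Fsk libraries, against 214 ± 8.37 CPM in Ctrl libraries (SD, n = 3 each), and its exons overlap those of the predicted gene Gm45346 on the other strand by 14.4%. In the whole neurotrophin list 2 of 13 tested genes rose and 6 fell, beside 24.8% and 25.1% of all genes tested. The co-receptor gene Rtn4r fell by 1.28 on the log2 scale and Ntf5 by 0.95, and Bex3, which encodes a protein that binds p75, fell by 0.72. Sort1, which encodes the p75 co-receptor sortilin, fell by 0.32, which was no longer called once library size was a covariate, and the call of the sheddase gene Adam17 (log2 fold change -0.14) was lost without any 1 library but Fsk A. The BDNF receptor gene Ntrk2 was close to 0 in Ctrl libraries (0.0787 to 0.268 CPM) and reached 1.36 to 2.14 CPM in Fsk libraries. Ntrk2 had 16, 18 and 26 counts in Fsk libraries, against 2, 3.5 and 1 counts in Ctrl libraries. It is among the 2 genes counted as risen, but it passed the filter only through the Fsk libraries.

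Abcc9 (mm10 chr6:142587862-142702274, minus strand) encodes SUR2, the regulatory subunit of the ATP-sensitive potassium channel of pericytes and smooth muscle. Its level was 254, 280.02 and 283 CPM in Fsk libraries A, B and C, against 111, 130.15 and 128 CPM in Ctrl libraries A, B and C. The lowest Fsk library was above the highest Ctrl library by far more than the spread within either group. Fsk over Ctrl, the log2 fold change came to 1.15 (SE 0.0566, edgeR adjusted p = 9.51e-12). The antisense transcript 5330439B14Rik overlaps 1.89% of the exon bases of Abcc9 and rose as well, to 7.26 CPM in Fsk libraries, against 3.29 CPM in Ctrl libraries.

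Kcnj8, which encodes the pore subunit Kir6.1 of the same channel and lies 16248 bases from Abcc9 on chromosome 6, had the larger log2 fold change of the pair. It had 100.1, 111 and 125 CPM in Fsk libraries A, B and C, against 23.8, 24.7 and 23.9 CPM in Ctrl libraries A, B and C (log2 fold change 2.21, SE 0.0759, edgeR adjusted p = 8.21e-14). The 95% intervals of the log2 fold change were 2.06 to 2.37 for Kcnj8 and 1.03 to 1.26 for Abcc9, and the difference between the genes was not tested further. Per kb of exon Kcnj8 stood at 44.0 ± 4.89 CPM in Fsk libraries, near the 36.3 ± 2.09 CPM of Abcc9, and at 9.48 ± 0.184 CPM in Ctrl libraries, below the 16.4 ± 1.37 CPM of Abcc9 (SD, n = 3 each). Genes of the pancreatic form of the channel, Kcnj11 and Abcc8, had 0 counts in all 6 libraries.

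Steap4 (mm10 chr5:7960472-7982213, plus strand) encodes a metalloreductase that reduces iron and copper at membranes. Its level was 69.4, 90.8 and 102 CPM in Fsk libraries A, B and C, against 32.3, 34.2 and 36.2 CPM in Ctrl libraries A, B and C. Fsk A was the lowest of its group, and the Fsk libraries spread more widely than the Ctrl libraries, with a coefficient of variation of 18.7% in Fsk libraries against 5.68% in Ctrl libraries. Over all genes tested the median coefficient of variation was 6.82% in Fsk libraries and 4.85% in Ctrl libraries. The difference on the log2 scale was 1.35 (SE 0.101, edgeR adjusted p = 2.7e-09), and without Fsk A it was 1.49. Of the related reductase genes, Steap1 rose by 0.17 on the log2 scale, Steap2 had 324 ± 20.7 CPM in Fsk libraries and 341 ± 6.03 CPM in Ctrl libraries (SD, n = 3 each, edgeR adjusted p = 0.191), and Steap3 fell by 0.97.

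Cygb (mm10 chr11:116645595-116654313, minus strand) encodes cytoglobin, a haem protein first known as a stellate cell protein that handles oxygen and nitric oxide. It had 74.4, 87.0 and 85.3 CPM in Fsk libraries A, B and C, against 51.1, 59.6 and 51.3 CPM in Ctrl libraries A, B and C. Fsk A was again the lowest of its group, and the groups did not overlap. The log2 fold change was 0.61 (SE 0.0707, edgeR adjusted p = 1.1e-06), and without Fsk A it was 0.67. Its exons overlap those of Prcd on the other strand by 8.62%, and Prcd stood at 0.904 CPM or less in every library. Mb and Ngb, the genes of myoglobin and neuroglobin, were below the filter. Cyb5r3, which encodes the reductase that returns cytoglobin to its reduced form, had 328 CPM in Fsk libraries and 315 CPM in Ctrl libraries (edgeR adjusted p = 0.248). Cyb5a, the gene of cytochrome b5, rose to 70.6 ± 1.58 CPM in Fsk libraries, against 63.5 ± 1.76 CPM in Ctrl libraries (SD, n = 3 each, edgeR adjusted p = 0.0255), a call lost without Ctrl B or Ctrl C and under 2 other alternatives.

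Gfap (mm10 chr11:102887336-102897200, minus strand), the intermediate filament gene of astrocytes that is used as a marker of rodent stellate cells, was hardly counted. It had 7.5, 12.5 and 15 counts in Fsk libraries A, B and C, against 9.5, 18.5 and 4 counts in Ctrl libraries A, B and C, or 35 counts in Fsk libraries and 32 counts in Ctrl libraries in all. The groups overlapped. The fitted log2 fold change was 0.31 with a 95% interval of -0.60 to 1.22 (edgeR adjusted p = 0.581), an interval that holds both no change and a change of 2-fold upward at this depth. The other intermediate filament genes of the cells were far higher. Synm, synemin, rose to 148 ± 15.1 CPM in Fsk libraries, against 69.7 ± 2.12 CPM in Ctrl libraries, while Des, desmin, fell to 182 ± 20.8 CPM in Fsk libraries, against 323 ± 7.38 CPM in Ctrl libraries (SD, n = 3 each). The exons of Synm and Des overlap genes on the other strand by 6.43% and 5.86%. Nes, nestin, rose by 0.27 on the log2 scale, and Vim, vimentin, had 846 CPM in Fsk libraries and 817 CPM in Ctrl libraries (edgeR adjusted p = 0.378).

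**Figure D3:**
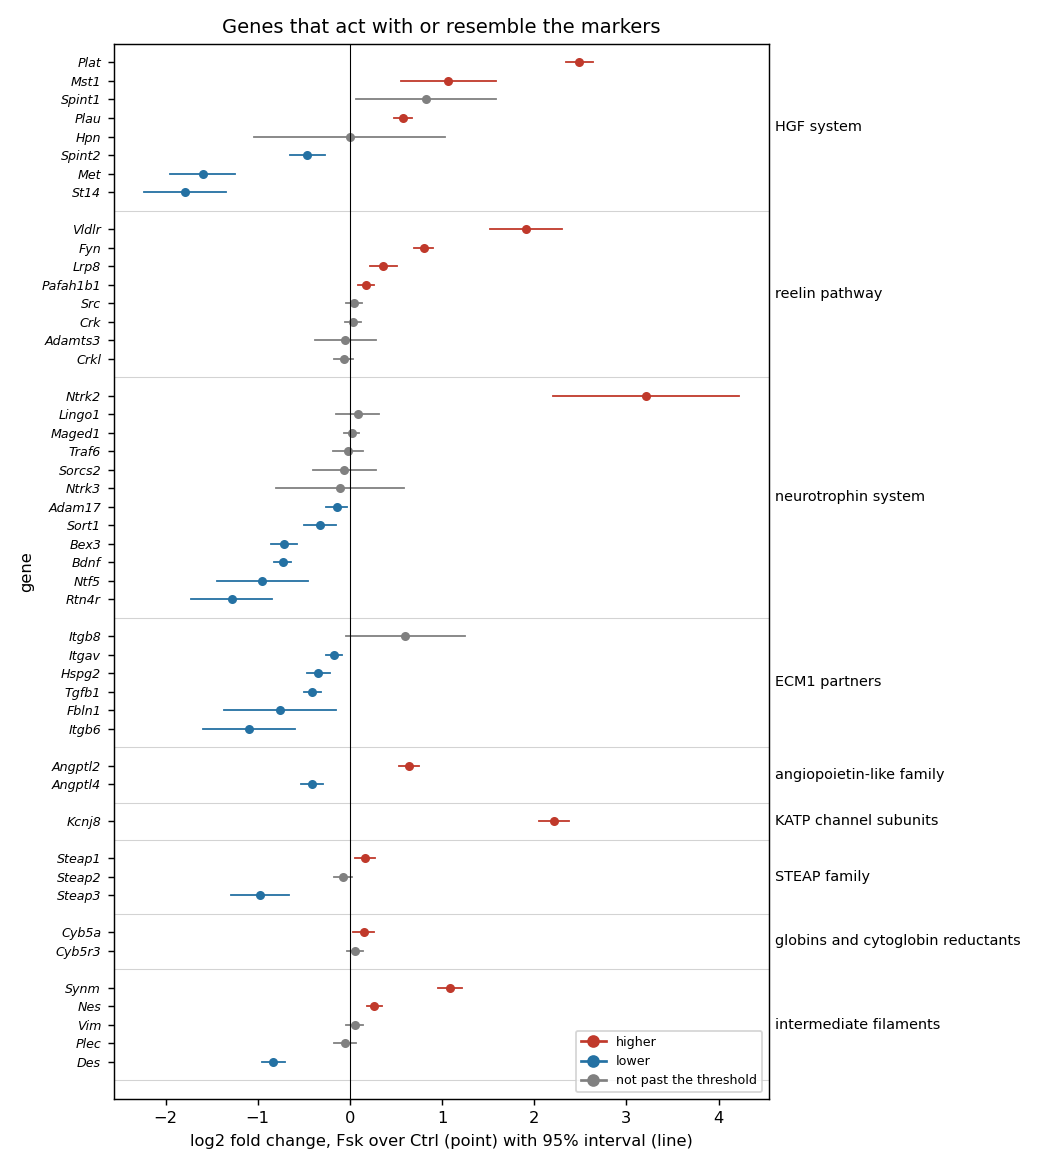
The log2 fold change of tested genes that act with, or are related to, a marker (point) with its 95% interval (line), grouped by system; red is higher in Fsk libraries, blue lower and grey not past the threshold. Plat, Vldlr, Ntrk2 and Kcnj8 are the farthest to the right in their groups, and St14, Met and Rtn4r are the farthest to the left.

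Compared per kb of exon, the markers covered a wide range of levels. Ecm1 was the highest in both groups, at 310.2 ± 17.2 CPM per kb in Fsk libraries and 261 ± 8.11 CPM per kb in Ctrl libraries (SD, n = 3 each), above 99.7% of the tested genes in Fsk libraries and 99.5% in Ctrl libraries. In Fsk libraries Hgf came next at 142 CPM per kb, then Reln at 79.7, Abcc9 at 36.3, Cygb at 35.4, Steap4 at 27.9, Angptl6 at 5.53, Ngfr at 1.84 and Gfap at 0.353. The library ranges of Abcc9 and Cygb overlapped in Fsk libraries, as did those of Cygb and Steap4, and the other neighbours in this order were separate. In Ctrl libraries the order was Ecm1, Reln at 71.5 CPM per kb, Hgf at 70.4, Cygb at 23.2, Abcc9 at 16.4, Steap4 at 10.9, Ngfr at 4.58, Angptl6 at 2.28 and Gfap at 0.278. There only Reln and Hgf overlapped, and without Ctrl B they changed places, which left 7 of 9 markers at their rank. By group means Hgf and Reln, Abcc9 and Cygb, and Angptl6 and Ngfr stood in the opposite order in the 2 groups. Only for Angptl6 and Ngfr were the library ranges separate in both groups. Those of Hgf and Reln overlapped in Ctrl libraries and those of Abcc9 and Cygb in Fsk libraries, so these orders are not settled.

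**Figure D4:**
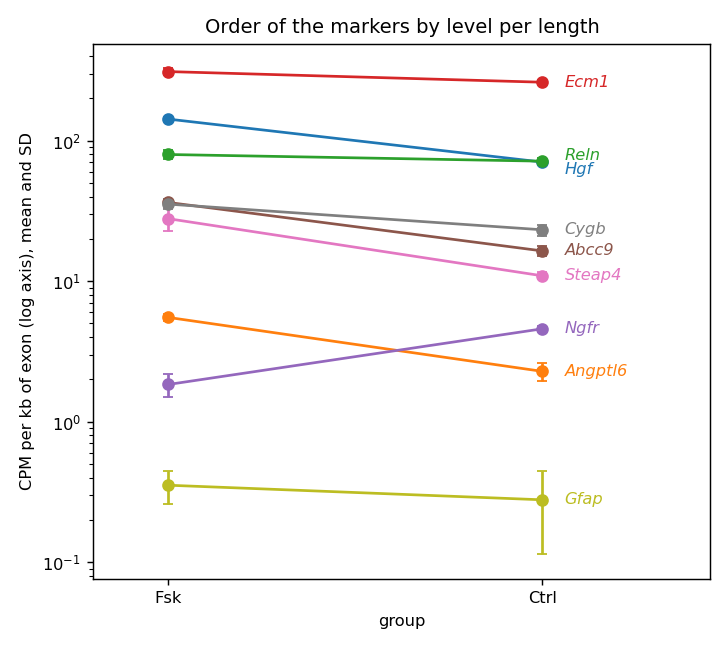
Level of each marker per kb of exon in Fsk and Ctrl libraries, on a log axis; points are means and bars are the SD of 3 libraries. The lines of Hgf and Reln meet in Ctrl libraries, and the lines of Angptl6 and Ngfr cross.

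The markers also varied differently between libraries of 1 group. Steap4, Cygb and Abcc9 were lowest in Fsk A, while Reln was lowest in Fsk C. Hgf had a coefficient of variation of 2.92% in Fsk libraries and 3.55% in Ctrl libraries, and Ecm1 of 5.53% in Fsk libraries and 3.11% in Ctrl libraries. The genes with at least 5 CPM on average, 10707 of them (10708 for Gfap, itself below that level), were compared with each marker. For each marker the gene with the highest Pearson's r of log2 CPM over the 6 libraries was sought. For Hgf this was Crhbp (Pearson's r = 0.999), for Abcc9 Adck1 (0.999), for Steap4 Iigp1 (0.999), for Cygb Lrrcc1 (0.998), for Ecm1 Plac8 (0.996), for Ngfr Rab3ip (0.999) and for Reln Nlrc5 (0.983). For Angptl6 it was Vps25, which shares 67.2% of its exon bases with Ramp2, so that its count is uncertain (r = 1.00), and for Gfap it was Axin1 (0.98). These r are descriptions over 6 libraries that share 2 groups, and many genes did as well. An r over 0.95 was found for 1125 genes with Hgf, but for 39 with Reln and 8 with Gfap. Such an r takes no account of level or of the size of a change. Crhbp averaged 11.7 CPM in Fsk libraries and 0.0971 CPM in Ctrl libraries, a log2 fold change of 6.78. Vps25 changed by only 0.21 on the log2 scale.

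Other genes of the quiescent state also moved in both directions. Of 24 tested genes of a list of other quiescent markers 12 rose and 7 fell, with a median log2 fold change of 0.14. Over all genes tested 24.8% rose and 25.1% fell, with a median of 0.01. Adamtsl2, a matrix protein gene, rose to 29.8 ± 6.21 CPM in Fsk libraries, against 4.11 ± 0.624 CPM in Ctrl libraries (SD, n = 3 each), and the endothelin receptor gene Ednrb rose 3.40-fold. The transcription factor gene Tcf21 fell by 1.96 on the log2 scale. Lrat, whose product attaches fatty acids to retinol so that it can be stored, had 41.6, 55.5 and 58.6 CPM in Fsk libraries A, B and C, against 54.0, 57.1 and 53.9 CPM in Ctrl libraries A, B and C (edgeR adjusted p = 0.487). Fsk A was low for Lrat as it was for Steap4 and Cygb. Among the calls of this list that were lost when 1 library was left out were those of Colec10 without Fsk B, Fsk C, Ctrl B or Ctrl C, and of Colec11 without Fsk C, Ctrl A or Ctrl B. The call of Rgs5 was lost without Fsk A, Ctrl A or Ctrl C, and that of Vipr1 without Ctrl A or Ctrl C.

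Of 22 tested activation markers 16 fell and 4 rose, beside 25.1% and 24.8% of all genes tested. Their median log2 fold change was -0.26. Lox, a collagen-crosslinking enzyme gene, fell by 1.09 on the log2 scale and Cnn1, calponin, by 1.06. Spp1, osteopontin, was the exception in size and rose to 372 ± 22.6 CPM in Fsk libraries, against 72.5 ± 3.61 CPM in Ctrl libraries (SD, n = 3 each). Its exons share 18.8% of their bases with the predicted gene Gm42793. The call of Col3a1, which was lower, was lost without any of the libraries but Fsk C, and that of Fn1, which was higher, without Ctrl A.

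**Figure D5:**
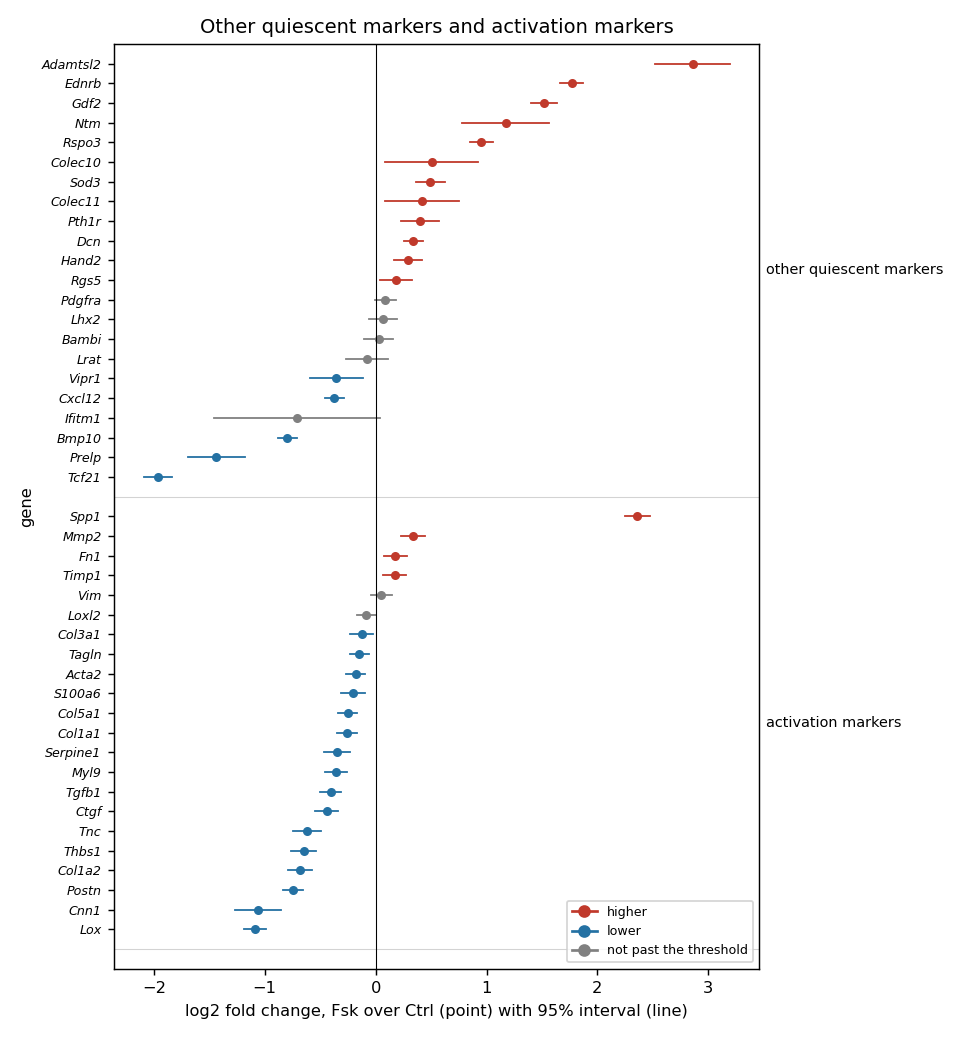
The log2 fold change (point) with its 95% interval (line) of other quiescent markers above and activation markers below, in the colours of the plot of partner genes. The quiescent markers lie on both sides of 0, and most activation markers lie to the left, with Spp1 far to the right.

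The cells carried genes known from stellate cells, though not all are particular to them: Des is also listed with vascular smooth muscle. Des, Pdgfrb, Dcn, Hand2, Lhx2 and Lrat were all at 41.6 CPM or more in every library, while Colec11 was at 6.27 to 11.7 CPM. Several of the 9 markers are also known from other cells, so the markers of those cells are given beside them. Among 10 genes of Schwann and glial cells, which also express Ngfr and Gfap, the summed level was 3.70 to 4.10 CPM in Fsk libraries and 1.85 to 2.48 CPM in Ctrl libraries, and Sox10 was at 0.164 CPM or less in every library. Most of the difference between these sums was S100b, at 1.37 ± 0.537 CPM in Fsk libraries and 0.145 ± 0.072 CPM in Ctrl libraries (SD, n = 3 each). S100b had 18, 10 and 21 counts in Fsk libraries, against 3, 2 and 1 counts in Ctrl libraries. It passed the filter only through the Fsk libraries, so no p-value is given for it. Fabp7, the other gene of the list that could be tested, had 0.67 CPM in Fsk libraries and 0.734 CPM in Ctrl libraries (edgeR adjusted p = 0.891). Among 12 hepatocyte genes, a cell type known to express Angptl6 and Ecm1, 4 were at 0 throughout, Alb was at 0.0756 CPM or less, and the sum was 4.65 to 5.21 CPM in Fsk libraries and 4.21 to 4.65 CPM in Ctrl libraries, nearly all of it Apoa2. Lymphatic endothelium, which also expresses Reln, gave 129 to 134 CPM in Fsk libraries and 240.3 to 252 CPM in Ctrl libraries over 6 genes, most of it Flt4, with Ccl21a at 0.182 CPM or less. For 12 sinusoidal endothelial genes the sum was 103 to 109 CPM in Fsk libraries and 241 to 249 CPM in Ctrl libraries, with Pecam1 and Cdh5 at 0.603 CPM or less. Flt4, which stands in both endothelial lists, made up most of both sums, at 79.7 ± 1.42 CPM in Fsk libraries and 195 ± 4.2 CPM in Ctrl libraries (SD, n = 3 each). Of the 7 sinusoidal genes tested 5 fell, beside 25.1% of all genes tested, among them Flt1 by 1.70 on the log2 scale. Tek and Lyve1 were also lower, but their calls were lost under 6 and 2 of 14 alternatives. Stab2 rose to 2.50 CPM in Fsk libraries, against 0.978 CPM in Ctrl libraries. The Stab2 call was lost with library size as a covariate (edgeR adjusted p = 0.220). Stab1 had 8.15 CPM in Fsk libraries and 7.74 CPM in Ctrl libraries (edgeR adjusted p = 0.709). The 10 macrophage genes summed to 38.0 to 39.1 CPM in Fsk libraries and 34.8 to 36.8 CPM in Ctrl libraries, with Adgre1, Clec4f, Marco and Vsig4 at 0.236 CPM or less. The 3 macrophage genes tested moved in both directions. Cd68 rose to 15.8 CPM in Fsk libraries, against 11.2 CPM in Ctrl libraries, a call lost without Fsk B. Csf1r rose to 18.3 CPM in Fsk libraries, against 13.2 CPM in Ctrl libraries. The Csf1r call was lost with library size as a covariate (edgeR adjusted p = 0.0637). The exons of Csf1r overlap those of Hmgxb3 on the other strand by 15.1%. Lyz2 fell to 4.23 CPM in Fsk libraries, against 10.8 CPM in Ctrl libraries. The part of these cells in the results was not tested.

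Total counts were 10890193 to 12954310 in Fsk libraries and 13001358 to 15090262.5 in Ctrl libraries, so every Ctrl library was deeper than every Fsk library. The replicate libraries of a group differed by more than counting noise in each of the 6 pairs, and none was counted as a repeat of another.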

How the data were processed

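Libraries of poly(A) RNA from primary mouse stellate cells, 3 Fsk and 3 Ctrl, were compared. The authors' deposited table holds estimated counts over exons per gene, in steps of 0.5, of which 31.8% were not whole. Per the submitters' processing notes, STAR, HOMER and the build mm10 were used; the labels state neither versions nor counting settings. The deposited counts were rounded to whole numbers and tested with edgeR 4.0.16 in R 4.3.3 (quasi-likelihood, TMM, genes filtered at a minimum count of 10 and a total of 15, Benjamini-Hochberg over 13357 genes, threshold 0.05), with the letters A to C left out of the fit. Alternatives were other size factors, filters and rounding, a block on the letters, library size as a covariate, DESeq2 1.42.0 and leaving out each library. All 9 markers passed the filter. Exon overlaps came from GENCODE M21 and windows from RefSeq (GRCm38.p6); Cygb had no window. The motifs other than the cyclic AMP response element were added after the sequences had been read. The markers and gene lists were chosen with earlier results of these data known. Named genes were all 9 markers and called genes of the lists of partner genes. Of every other list, genes among the 3 called ones with the largest changes were named, though not always all 3. For each marker the gene with the highest Pearson's r was also named (predicted genes left out). Other genes named, such as those at 0, not called or with an unstable call, were chosen after their values were seen. Some genes counted in the lists are not reported here by name or drawn in the plots.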

Additional observations from a re-analysis of the deposited data

How the results depend on the processing

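Over 14 alternatives 7 of the 9 markers kept their direction and their side of the threshold. The exceptions were Reln, whose values stand with its result, and Gfap. Gfap was not tested under a filter of 1 CPM on average and passed the threshold in none of the others. Its log2 fold change was highest, at 1.19, with library size as a covariate (edgeR adjusted p = 0.183). When 1 library was left out it ranged from -0.027 without Ctrl replicate C (edgeR adjusted p = 0.969) to 0.84 without Ctrl replicate B. The number of higher markers was 6 to 7 when 1 library was left out, and the number of lower markers stayed at 1.

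Of all genes, 6668 passed the threshold in the reported fit, 5726 with DESeq2, 5640 to 6800 when 1 library was left out, and 4297 with log library size as a covariate, a term that goes with the groups because every Ctrl library was deeper. Same-letter libraries of the groups deviated together only weakly (r = 0.0318 for A, 0.0237 for B and 0.0342 for C), although each library correlated best with its own letter. The letters were not taken as pairs in the reported fit, and whether they pair the libraries was not settled. With the letters as a replicate block 6675 genes passed. Gfap, with 35 counts in Fsk libraries and 32 counts in Ctrl libraries, is limited by depth.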

Other observations

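The list of vascular smooth muscle genes holds Des and Cnn1, which also stand in the lists of stellate cell genes and activation markers. All 8 tested genes of this smooth muscle list were lower in Fsk libraries, beside 25.1% of all genes tested. Their median log2 fold change was -0.67. Among them Actg2, an actin of smooth muscle, had 14.9 ± 4.16 CPM in Fsk libraries and 29.7 ± 0.577 CPM in Ctrl libraries (SD, n = 3 each), and the calls of Smtn (without any 1 library but Fsk C), Mylk (without Fsk A, Fsk B, Ctrl B or Ctrl C) and Synpo2 (without Fsk B or Ctrl B) were lost. In the list of portal fibroblasts and mesothelium 2 of 7 tested genes rose, Thy1 and Cd34, and 2 fell, Krt19 and Fbln2. Of all genes tested 24.8% rose and 25.1% fell. Fbln2 had 493 CPM in Fsk libraries and 581 CPM in Ctrl libraries. It made up most of the list sum, 544 to 571 CPM in Fsk libraries and 657 to 670 CPM in Ctrl libraries. Thy1, a surface glycoprotein, had 5.01, 3.70 and 6.08 CPM in Fsk libraries A, B and C, against 0.517, 0.804 and 0.63 CPM in Ctrl libraries A, B and C, and Cd34 had 19.6 ± 5.39 CPM in Fsk libraries and 3.86 ± 0.213 CPM in Ctrl libraries (SD, n = 3 each). Gpm6a, a mesothelial marker, was at 0 in every library. In the cholangiocyte list Krt19 fell by 1.02 on the log2 scale and Sox9 rose 2.28-fold, while Epcam was at 0.365 CPM or less in every library. The part of such cells in these values was not tested.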
